A study of Rattus norvegicus with 34 samples.

Results

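Phagocyte Fc receptors, their signalling adaptors, the phagocyte oxidase and lysosomal enzymes of phagocytes were followed through the livers of ageing male rats. The group was a list of 9 gene symbols: Fcgr1a, Fcgr3a, Fcgr2b, Fcer1g, Tyrobp, Cybb, Cyba, Ctss and Lyz2. All 9 had a probe set in both strains, out of 11943 genes in F344 and 11984 in Brown Norway rats, and each gene was read at its probe set of highest mean log2 signal in the strain. On every array that probe set lay above a signal of 32, the floor below which signals were not told apart, so all 9 were among the 9206 F344 and 8584 Brown Norway genes tested.

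Liver RNA of 34 male rats was hybridised to Affymetrix Rat 230 2.0 arrays, 1 animal to an array, in a study of enzymes that metabolise foreign compounds. F344 rats were 6, 11, 18 or 24 months old, undosed, with 4 rats at each age, and were kept by their supplier until 1 week before necropsy. Brown Norway rats, housed singly, were 4, 12 or 24 months old. At each age 3 received the solvent toluene (1 g/kg, gavage, corn oil) and were killed after 4 h, and 3 were controls whose labels record no treatment and name no vehicle. The 2 strains differed in their ages and housing, so their levels were not compared, only their changes with age. Rats are named by replicate numbers that have no order.

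Receptors for the Fc part of immunoglobulin G let macrophages bind and engulf antibody-coated particles. The activating receptors have no signalling motif that works alone and pass the signal through a small adaptor with an immunoreceptor tyrosine-based activation motif (ITAM), while the inhibitory receptor carries its own dampening motif. Engulfed material meets superoxide from the phagocyte NADPH oxidase and then lysosomal hydrolases. In liver these functions belong mainly to Kupffer cells, the resident macrophages of the sinusoids, and the sinusoidal endothelium carries much of the inhibitory receptor.

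In the RefSeq gene order Fcgr2b and Fcgr3a were neighbours on chromosome 13 with no protein-coding gene between them, and Fcer1g lay 10 protein-coding genes from Fcgr3a. Ctss and Fcgr1a lay on chromosome 2 with 31 protein-coding genes between them. Promoter windows of 300 bases (250 before the transcription start and 50 after it, RefSeq, build GRCr8) were at hand for 5 of the 9 genes, namely Fcgr3a, Cybb, Cyba, Ctss and Lyz2. They are shown for a motif search, since PU.1, a factor of the myeloid lineage, is known to bind at a GAGGAA core in promoters of macrophage genes. The 100 bases before each start follow, 5′ to 3′ on the gene's strand, with GAGGAA or its reverse complement TTCCTC in capitals.
Fcgr3a, chr13:85782536-85782635, plus strand: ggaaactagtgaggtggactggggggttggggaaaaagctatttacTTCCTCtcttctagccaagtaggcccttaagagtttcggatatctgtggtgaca
Cybb, chrX:16065066-16065165, minus strand: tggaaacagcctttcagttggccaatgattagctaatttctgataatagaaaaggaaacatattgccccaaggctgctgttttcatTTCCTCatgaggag
Ctss, chr2:185775296-185775395, plus strand: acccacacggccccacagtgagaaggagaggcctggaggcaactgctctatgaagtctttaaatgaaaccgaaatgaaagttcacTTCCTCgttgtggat
Lyz2, chr7:54798012-54798111, minus strand: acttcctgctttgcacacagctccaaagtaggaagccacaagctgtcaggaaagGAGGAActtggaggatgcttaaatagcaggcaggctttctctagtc
Cyba, chr19:67404215-67404314, minus strand: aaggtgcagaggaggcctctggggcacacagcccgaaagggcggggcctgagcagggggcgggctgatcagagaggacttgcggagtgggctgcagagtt
GAGGAA, searched on both strands, was in 4 of the 5 windows, once in each. It lay from -54 to -49 of the start in Fcgr3a, from -14 to -9 in Cybb, from -15 to -10 in Ctss and from -46 to -41 in Lyz2, read as TTCCTC in the first 3 of these and as GAGGAA in Lyz2. Of all 33469 windows of this length, 27.6% held it. TTCNNNGAA, a palindrome that interferon-activated STAT factors are known to bind, was in 0 of the 5 windows and in 8.87% of all windows. Its last 6 positions can spell GAGGAA, so the motifs can overlap. A match in letters is a description of the window and shows no binding.

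Among F344 rats the estimates of all 9 genes were positive at 24 and at 18 against 6 months. At 24 against 6 months 6 of 9 rose and none fell, namely Fcgr1a, Fcgr3a, Fcer1g, Tyrobp, Cybb and Ctss, by 1.43-fold to 1.96-fold (limma, Benjamini-Hochberg adjusted p under 0.05 over all 9206 genes). Of all genes tested 4.43% rose by this rule. The median log2 fold change was 0.78 over the 9 genes and -0.01 over all genes. At 18 against 6 months 3 of 9 rose, Fcer1g, Ctss and Lyz2, where 0.912% of all genes did, with a median of 0.57 over the 9. In whole liver more cells of a type and more RNA per cell cannot be told apart.

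**Figure D1:**
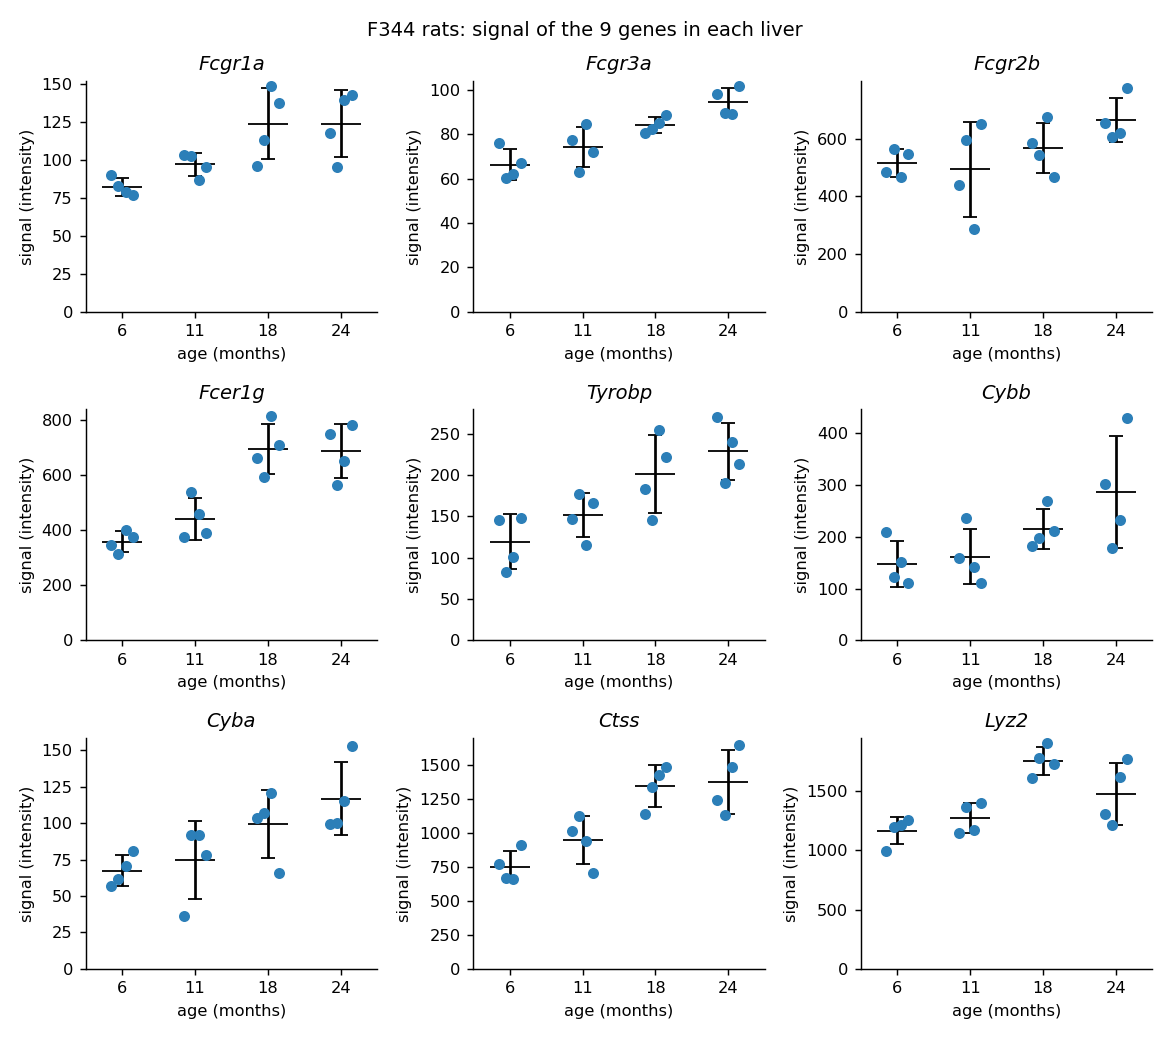
Signal (linear intensity, axes from 0) of each gene in every F344 liver at 6, 11, 18 and 24 months. Points are single rats, 4 at each age, and black bars are the mean with 1 SD. Fcer1g and Ctss show 18-month and 24-month rats above every 6-month rat, and Lyz2 is highest at 18 months.

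Fcgr1a encodes the high-affinity receptor for immunoglobulin G. Its signal in the 4 F344 rats of 6 months was 89.9, 82.6, 79.0 and 76.7, at 11 months 103, 102, 86.9 and 95.3, at 18 months 96.1, 113, 148 and 137 and at 24 months 118, 95.3, 139 and 143. All rats of 18 and of 24 months were above all rats of 6 months, and the 11-month rats overlapped both neighbouring ages. The mean went from 82.1 ± 5.74 (SD, n = 4) at 6 months to 124 ± 21.9 (SD, n = 4) at 24 months, a 1.49-fold rise (log2 ratio 0.58 with SE 0.15, adjusted p = 0.0251). The 18-month mean was 124 ± 23.4 (SD, n = 4), and its difference from 6 months missed the threshold (adjusted p = 0.0738).

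Fcgr3a encodes the low-affinity activating receptor of macrophages and natural killer cells. Signals were 75.8, 60.1, 62.2 and 67.1 at 6 months, 77.2, 62.8, 84.3 and 72.0 at 11, 80.7, 82.3, 84.8 and 88.8 at 18 and 97.9, 89.3, 89.3 and 102 at 24 months. It was the single gene of the 9 in which every 24-month rat also exceeded every 18-month rat, by a narrow margin, where 4.12% of all genes did. From 66.3 ± 7.0017 (SD, n = 4) it rose to 94.5 ± 6.29 (SD, n = 4), 1.43-fold (log2 ratio 0.52 with SE 0.11, adjusted p = 0.00839). The increase was small beside that of the adaptors but was set against a narrow spread between rats.

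Fcgr2b encodes the inhibitory receptor, which sinusoidal endothelial cells carry as well as Kupffer cells. Its F344 signals were 484, 565, 466 and 546 at 6 months, 441, 595, 287 and 651 at 11, 585, 543, 676 and 467 at 18 and 654, 605, 620.3 and 775 at 24 months. The 24-month rats lay above the 6-month rats, but the 11-month rats ran from below every other rat of the strain up into the 24-month range. The difference of 24 against 6 months was 1.29-fold and did not pass (log2 ratio 0.36 with SE 0.20, adjusted p = 0.337, 95% interval -0.06 to 0.79).

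At 24 against 6 months the estimates were largest for the adaptors, with that of Cybb close behind (1.89-fold). At 18 against 6 months Ctss (1.79-fold) was above the adaptor Tyrobp (1.70-fold). Fcer1g encodes the common gamma chain that carries the ITAM for Fcgr1a and Fcgr3a. Its signal was 346, 313, 401 and 375 at 6 months, 374, 539, 459 and 391 at 11, 663, 594, 813 and 711 at 18 and 751, 565, 650.0 and 782 at 24 months. The 8 rats of 18 and 24 months were all above the 8 younger rats. It rose from 359 ± 37.9 (SD, n = 4) at 6 to 695 ± 92.1 (SD, n = 4) at 18 months, 1.93-fold (log2 ratio 0.95 with SE 0.14, adjusted p = 0.0041), and stood at 687 ± 98.9 (SD, n = 4) at 24 months, 1.91-fold above 6 months (log2 ratio 0.93 with SE 0.14, adjusted p = 0.00089). The step from 11 to 18 months, 1.58-fold, missed the threshold (log2 ratio 0.66 with SE 0.14, adjusted p = 0.0672).

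Tyrobp encodes DAP12, an ITAM adaptor that pairs with receptors such as Trem2 rather than with Fc receptors. F344 signals were 146, 82.5, 100.76 and 148 at 6 months, 147, 177, 116 and 167 at 11, 183, 145, 255 and 222 at 18 and 270.0, 189.8, 240.4 and 214 at 24 months. The 24-month rats were all above the 6-month rats, while the 18-month rats overlapped both the older and the younger groups. It rose from 119 ± 32.9 (SD, n = 4) to 229 ± 34.5 (SD, n = 4), 1.96-fold (log2 ratio 0.97 with SE 0.21, adjusted p = 0.00986).

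The membrane part of the oxidase is a pair of proteins, the catalytic gp91-phox from Cybb and its partner p22-phox from Cyba. Cybb signals were 209.7, 122, 150.5 and 110.3 at 6 months, 159.7, 236, 142 and 109.9 at 11, 182, 198, 269 and 212 at 18 and 302, 179, 233 and 429.5 at 24 months. One 6-month rat exceeded the lowest 24-month rat, so the groups overlapped. The rise from 148 ± 44.4 (SD, n = 4) to 286 ± 108 (SD, n = 4), 1.89-fold, passed narrowly (log2 ratio 0.92 with SE 0.27, adjusted p = 0.049). The call ended under 6 other processing settings (adjusted p from 0.06 to 0.112). A dimmer probe set of Cybb gave 25.8 ± 7.94 (SD, n = 4) at 6 and 46.2 ± 4.62 at 24 months, with 1 of 4 rats above the floor at 6 months.

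Cyba signals in F344 rats were 57.0, 61.8, 70.5 and 80.6 at 6 months, 36.2, 92.2, 92.0 and 78.4 at 11, 104, 107, 121 and 65.9 at 18 and 99.2, 100.2, 116 and 153 at 24 months. All 24-month rats were above all 6-month rats, and the spread at 11 and 18 months covered most of the range. The 1.72-fold difference of 24 against 6 months did not pass (log2 ratio 0.78 with SE 0.26, adjusted p = 0.089). It passed with limma's array weights (adjusted p = 0.0217) and in a fit of these age groups alone (adjusted p = 0.0167).

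Cathepsin S, from Ctss, is a lysosomal protease that trims the invariant chain of MHC class II in antigen-presenting cells. Its signals were 770.3, 671, 659 and 910.2 at 6 months, 1012, 1126, 944 and 707 at 11, 1137, 1335, 1424 and 1487 at 18 and 1242, 1130.4, 1485 and 1648 at 24 months. As for Fcer1g, the 8 rats of 18 and 24 months lay above the 8 younger rats. It rose from 753 ± 116 (SD, n = 4) at 6 to 1346 ± 152 (SD, n = 4) at 18 months, 1.79-fold (log2 ratio 0.84 with SE 0.16, adjusted p = 0.0175), and to 1377 ± 234 (SD, n = 4) at 24 months, 1.82-fold (log2 ratio 0.87 with SE 0.16, adjusted p = 0.00341).

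Lysozyme, from Lyz2, followed another course. Signals were 998, 1198, 1214 and 1255 at 6 months, 1149, 1369, 1174 and 1397 at 11, 1612, 1778, 1905 and 1730.4 at 18 and 1310.5, 1217, 1618 and 1775 at 24 months. The 18-month rats stood above all rats of 6 and 11 months, and of the 24-month rats 2 lay within the 11-month range and 2 above it. It rose from 1166 ± 115 (SD, n = 4) at 6 to 1756 ± 121 (SD, n = 4) at 18 months, 1.51-fold (log2 ratio 0.59 with SE 0.13, adjusted p = 0.0365), and at 24 months was 1480.0 ± 261 (SD, n = 4), a difference from 6 months that did not pass (adjusted p = 0.144). The call at 18 months ended under 6 other processing settings (adjusted p from 0.051 to 0.0668). The difference of 24 against 18 months, -0.26 on the log2 scale, did not pass either (adjusted p = 0.449).

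Between neighbouring ages 0 of 9 genes passed with limma. At 11 against 6 months 0 of 9 had an unadjusted p under 0.05, as had 3.88% of all genes, and the share of all genes that passed was 0%. At 18 against 11 months 4 of 9 had such a p, all higher, as had 11.1% of all genes in either direction, and 0.206% of all genes rose after adjustment. At 24 against 18 months 0 of 9 had such a p, as had 11.9% of all genes, while 1.76% of all genes passed. By mean log2 signal 6 of the 9 genes had the order 6, 11, 18, 24 months, Fcer1g and Lyz2 were highest at 18 months, and Fcgr2b was lowest at 11. Counted by separation, 7 of 9 genes had every 24-month rat above every 6-month rat, against 9.15% of all genes, and 5 of 9 had every 18-month rat above every 6-month rat, against 4.52%.

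The 4 rises of Fcgr3a, Fcer1g, Tyrobp and Ctss at 24 against 6 months held when any 1 array of these ages was left out. Fcgr1a and Cybb lost their call without rat 1, 3 or 4 of the 24-month group or rat 2, 3 or 4 of the 6-month group, with adjusted p from 0.0545 to 0.0854 for Fcgr1a and from 0.0579 to 0.16 for Cybb. At 18 against 6 months Ctss lost its call without 18-month rat 3 or 6-month rat 1, 2 or 3 (adjusted p 0.0501 to 0.074), and Lyz2 lost its call without 18-month rat 2 or 3 or any 1 of the 6-month rats (adjusted p 0.0515 to 0.151). The ratio of 3′ to 5′ GAPDH signal, which rises as RNA degrades, was above 2.5 on 5 F344 arrays, 2 each at 6 and 11 months and 1 at 18 months. Without these arrays 4 of 9 genes rose at 24 against 6 months, as Fcgr1a (adjusted p = 0.103) and Tyrobp (adjusted p = 0.0571) dropped out, and 1 of 9, Fcer1g, at 18 against 6 months. With the ratio as a covariate the counts were 6 and 4.

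In Brown Norway controls the estimates of all 9 genes were positive at 24 against 4 months, with a median log2 fold change of 1.15 against 0.00 over all genes, but 0 of 9 passed with limma. That of Lyz2 was positive through 1 rat. Of the 9, 8 had an unadjusted p under 0.05, as had 11.6% of all genes, the lowest adjusted p was 0.0583 for Fcgr3a, and 0.245% of all genes passed in either direction. In 7 of 9 genes every 24-month control was above every 4-month control, where 7.14% of all genes did this. The size of the difference depended on 1 animal, rat 1 of the 24-month controls, whose signal was the highest of the 18 Brown Norway arrays for 9 of 9 genes. That array was the highest for 11.2% of all tested genes. Without it the median of the 9 was 0.78 and 8 of 9 were still higher. The 8 that had an unadjusted p under 0.05 were not the same 8. They included Lyz2, which was lower (log2 ratio -0.41), but not Cyba, which was higher (log2 ratio 0.59). Of the 9 genes 0 passed with limma (lowest adjusted p = 0.0889, Fcgr3a). With rat 1 kept and another 24-month control left out the count went the other way. Without rat 2, 6 of 9 passed (Fcgr1a, Fcgr3a, Fcer1g, Tyrobp, Cybb and Ctss, adjusted p from 0.016 to 0.0432), and without rat 3, 2 of 9 (Fcgr3a and Ctss).

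**Figure D2:**
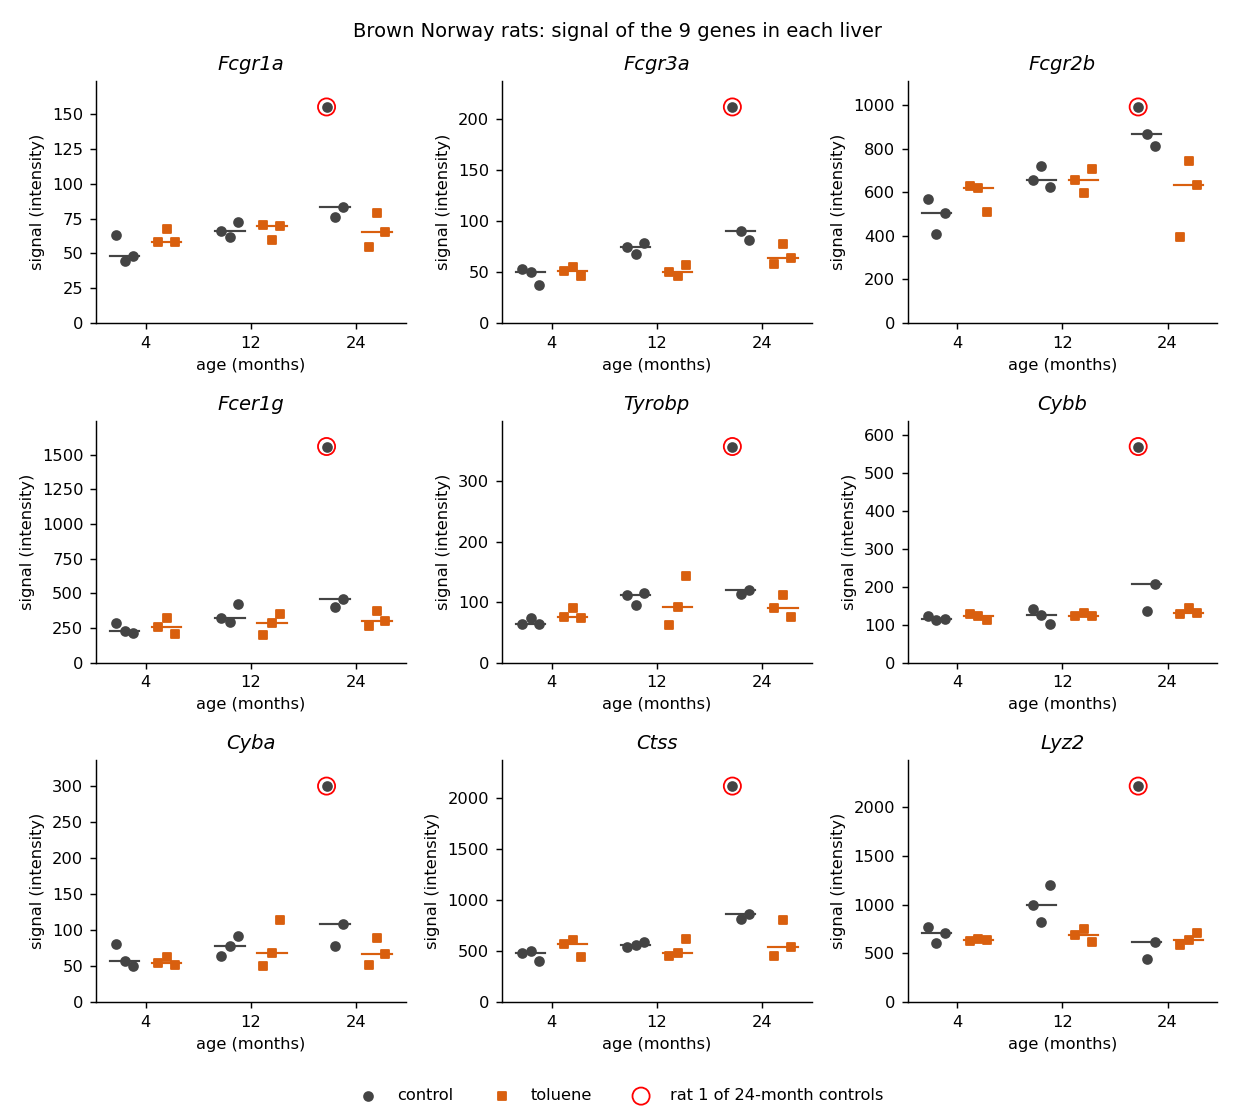
Signal (linear intensity, axes from 0) of each gene in every Brown Norway liver by age, controls as grey circles and toluene-dosed rats as orange squares, 3 rats in each group, with a line at the group median. The red ring marks rat 1 of the 24-month controls, which is the highest of the 18 rats in all 9 panels.

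The Fc receptors lay above the 4-month range in the other 24-month controls too. Fcgr3a was 53.1, 50.2 and 36.7 in the 4-month, 74.3, 67.3 and 78.5 in the 12-month and 211, 89.5 and 81.1 in the 24-month controls. No value was shared between these 3 ages, and the order was the same with rat 1 left out. The mean at 4 months was 46.7 ± 8.75 (SD, n = 3) and at 24 months 127 ± 72.9 (SD, n = 3) (log2 ratio 1.32 with SE 0.27, adjusted p = 0.0583), or 1.85-fold without rat 1 (log2 ratio 0.89 with SE 0.17, adjusted p = 0.0889).

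Fcgr2b, the inhibitory receptor, was the gene in which rat 1 stood out least. Controls gave 572, 408 and 507 at 4, 658, 723 and 627 at 12 and 992, 870.3 and 814 at 24 months, and these ages did not overlap. Rat 1 was 1.14-fold above the next highest array. From 496 ± 82.4 (SD, n = 3) the signal differed 1.81-fold to 892 ± 91.3 (SD, n = 3) (log2 ratio 0.86 with SE 0.19, adjusted p = 0.0725), and without rat 1 1.71-fold (log2 ratio 0.78 with SE 0.22, adjusted p = 0.274).

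Fcgr1a controls gave 63.3, 44.6 and 48.1 at 4, 65.9, 62.0 and 72.9 at 12 and 155, 76.2 and 83.4 at 24 months. Rat 1 was 1.86-fold above any other array, and the other 24-month controls were above all younger controls. The difference of 24 against 4 months was 1.94-fold (log2 ratio 0.96 with SE 0.22, adjusted p = 0.0831) and 1.55-fold without rat 1 (adjusted p = 0.269).

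Rat 1 stood furthest apart in the adaptors and the oxidase. Fcer1g was 283, 226 and 213 in the 4-month, 319, 291 and 422 in the 12-month and 1558, 398 and 461 in the 24-month controls, so that rat 1 was 3.38-fold above the next array. The difference of 24 against 4 months was 2.76-fold (log2 ratio 1.46 with SE 0.39, adjusted p = 0.12) with it and 1.79-fold (adjusted p = 0.321) without it. Tyrobp gave 64.2, 73.8 and 63.2 at 4, 112, 95.5 and 114 at 12 and 357, 113 and 119.5 at 24 months. Apart from rat 1, the 24-month controls of Tyrobp overlapped the 12-month controls. Its difference of 24 against 4 months was 2.53-fold (adjusted p = 0.121), and 1.74-fold without rat 1 (adjusted p = 0.376).

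Cybb was near level in young and middle-aged controls, at 123, 111 and 116 at 4 and 139.8, 124 and 101.12 at 12 months, and 568, 136 and 208 at 24 months. Rat 1 was 2.74-fold above the next array, rat 3 of the same group. The difference of 24 against 4 months was 2.17-fold (adjusted p = 0.168), and 1.44-fold without rat 1 (adjusted p = 0.361). The dimmer probe set of Cybb gave 37.2 ± 5.3 (SD, n = 3) at 4, 51.5 ± 4.26 at 12 and 124 ± 91.9 at 24 months. In it every 12-month control was above every 4-month control, unlike in the brighter probe set. Cyba gave 81.0, 56.4 and 50.8 at 4, 63.7, 77.7 and 92.2 at 12 and 300.03, 78.2 and 109 at 24 months, with overlap between all the ages once rat 1 was set aside. Its difference of 24 against 4 months was 2.23-fold (adjusted p = 0.249), and without rat 1 the log2 ratio was 0.59 (adjusted p = 0.788).

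The lysosomal enzymes separated from each other in the other 24-month controls. Ctss was 479, 504 and 407 at 4, 544, 560.0 and 585 at 12 and 2122, 815 and 868 at 24 months, with all 24-month controls above all younger controls. The difference of 24 against 4 months was 2.48-fold (log2 ratio 1.31 with SE 0.29, adjusted p = 0.0725), and 1.82-fold without rat 1 (adjusted p = 0.19). Lyz2 was 774, 608 and 705 at 4, 992, 818 and 1203 at 12 and 2218, 443 and 616 at 24 months. Rat 1 had the highest Lyz2 signal of the 18 arrays and rat 2 of the same group the lowest. Its log2 fold change of 24 against 4 months was 0.29 with rat 1 (adjusted p = 0.87) and -0.41 without it (adjusted p = 0.633), and that of 24 against 12 months was -0.23 with rat 1 and -0.93 without it (adjusted p = 0.133).

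At 12 against 4 months 0 of 9 genes passed in the controls with limma, 2 of 9 had an unadjusted p under 0.05, Fcgr3a and Fcgr2b, as had 3.9% of all genes, and 0% of all genes passed. In 6 of 9 genes every 12-month control was above every 4-month control, against 4.45% of all genes. Cybb, Cyba and Fcgr1a were the exceptions. At 24 against 12 months 0 of 9 passed, 6 of 9 had an unadjusted p under 0.05, as had 14.6% of all genes, and 0.0233% of all genes passed, while without rat 2 of the 24-month controls 1 of 9 did, Cybb (adjusted p = 0.0342). Without rat 1 of that group 0 of 9 passed and the median log2 fold change was 0.26. Then 3 of 9 had an unadjusted p under 0.05, Cybb and Ctss higher and Lyz2 lower. By mean log2 signal the 24-month controls were the highest of the 6 Brown Norway groups for 8 of 9 genes, and for Fcgr1a, Fcgr3a, Fcgr2b and Ctss they did not overlap the next group. For Fcgr1a they did overlap the 24-month dosed rats, a group of lower rank (76.2 in the lowest control, 79.4 in the highest dosed rat). For Lyz2 the 12-month controls were the highest. The 4-month controls were the lowest group for 7 of 9, and the 4-month dosed rats for Cyba and Lyz2.

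Age was also compared within the dosed Brown Norway rats. At 24 against 4 months 0 of 9 passed with limma, 0 of 9 had an unadjusted p under 0.05, as had 5.51% of all genes, and the median log2 fold change was 0.15, where 0.268% of all genes passed. Fcgr3a was 51.1, 55.2 and 45.7 in 4-month, 49.6, 46.1 and 57.2 in 12-month and 57.8, 76.9 and 63.6 in 24-month dosed rats, the gene of the 9 in which all dosed 24-month rats were above all dosed 4-month rats, as in 8.54% of all genes. Ctss was 568, 613 and 445 at 4, 457, 486 and 616 at 12 and 454, 804 and 537 at 24 months in dosed rats, with overlap throughout. Lyz2 in dosed rats was 626, 648 and 638 at 4, 692, 747 and 617 at 12 and 581, 634 and 707 at 24 months, all between 581 and 747.

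**Figure D3:**
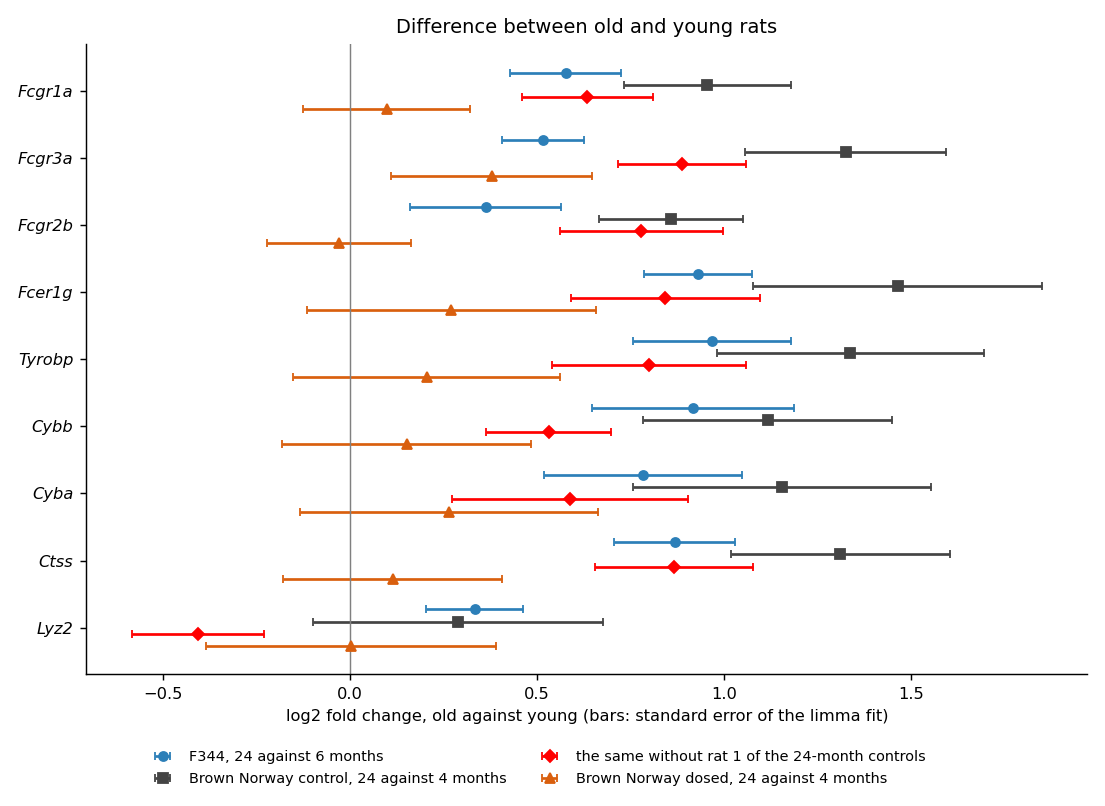
Log2 fold change of old against young rats for each gene, with the standard error of the limma fit as bars. Blue circles are F344 rats of 24 against 6 months, grey squares Brown Norway controls of 24 against 4 months, red diamonds the same controls without rat 1 of the 24-month group, and orange triangles the dosed rats. Fcer1g lies at 0.93 in F344 rats and at 1.46 in Brown Norway controls, and Lyz2 changes sign in the controls once rat 1 is left out.

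Toluene was compared with control at each age, using the same control arrays as the comparisons of age. At 4 months 0 of 9 genes passed with limma and 0 had an unadjusted p under 0.05, as had 3.16% of all genes, with 0.0233% of all genes passing. At 12 months 0 passed and 0 had such a p, as had 4.61% of all genes, with 0.0349% of all genes passing. Fcgr3a and Lyz2, 2 of 9, were lower in every dosed rat than in any control of that age, against 4.4% of all genes. At 24 months all 9 estimates were negative, with a median of -0.89, 8 of 9 had an unadjusted p under 0.05, as had 11.1% of all genes, and 0 passed, while 0.0582% of all genes did. Without rat 2 of the 24-month controls 1 of 9 passed, Cybb (adjusted p = 0.0472). Cell type markers moved with this comparison. Of 10 Kupffer cell markers 0 estimates were positive (median -0.88, 9 at an unadjusted p under 0.05, 0 passing), with sums of 4147 to 8081 in controls and 2653 to 4096 in dosed rats. The median was -0.70 over 7 pan-leukocyte genes, -1.08 over 7 MHC class II genes and 1.13 over 2 erythroid genes, and their part in the result was not tested. All these medians, that of the Kupffer cell markers among them, include rat 1 of the controls. That rat had the highest Kupffer cell, pan-leukocyte and MHC class II sums and the lowest erythroid sum of the 24-month controls. The highest Kupffer cell sum on any other Brown Norway array was 4701. The sums of dosed and control rats overlapped in the pan-leukocyte, MHC class II and erythroid lists. In controls and dosed rats they were 772 to 2314 and 620 to 846 for pan-leukocyte genes. For MHC class II they were 1492 to 10892 and 1080 to 1945, and for erythroid genes 1634 to 4723 and 4658 to 5969. In 5 of 9 genes every dosed rat of 24 months was below every control, against 8.61% of all genes.

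Fcer1g was 262, 374 and 301 in the dosed rats of 24 months, 198, 284 and 347 in those of 12 and 259, 321 and 203 in those of 4 months. The 24-month dosed rats were all below the 24-month controls, the lowest of which was rat 2. The difference was 2.13-fold lower (log2 ratio -1.09 with SE 0.39, adjusted p = 0.333, 95% interval -1.91 to -0.27), and without rat 1 of the controls it was -0.47 (adjusted p = 0.787). Fcgr2b, least touched by rat 1, was 396, 745 and 634 in the dosed rats, 1.56-fold below the controls (log2 ratio -0.64 with SE 0.19, adjusted p = 0.294), and -0.56 without rat 1 (adjusted p = 0.736). Dosed rats of 24 months spanned a wide range in this gene. Tyrobp was 90.4, 112 and 75.1 and Cybb 129, 144 and 129.9 in the same rats, and the dosed rats overlapped the controls for Cybb but, by a small margin, not for Tyrobp.

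Fcgr1a in the 24-month dosed rats was 54.4, 79.4 and 65.3, and Cyba was 51.4, 88.6 and 67.4, both overlapping the controls. Over the 9 genes the median log2 difference of dosed from control rats at 24 months was -0.38 without rat 1, 3 of 9 had an unadjusted p under 0.05, and Lyz2 was positive (0.29). Whether the difference between 24 and 4 months itself differed between dosed and control rats was tested as an interaction. There 0 of 9 passed with limma, 6 of 9 had an unadjusted p under 0.05, as had 4.89% of all genes, 0.0116% of all genes passed, and the median was -0.95, or -0.54 without rat 1. The 95% interval for Ctss was -2.08 to -0.32 and for Lyz2 -1.45 to 0.88.

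The change with age was compared between the strains as the F344 log2 fold change of 24 against 6 months minus that of Brown Norway controls of 24 against 4 months. Of the 9 genes 0 passed by the t statistic built from both limma fits, 1 had an unadjusted p under 0.05, as had 8.57% of all genes, and 0.478% of 7956 genes passed. The difference for Fcgr3a was -0.81 (95% interval -1.41 to -0.20, adjusted p = 0.342), and -0.37 without rat 1 of the 24-month Brown Norway controls (adjusted p = 0.678). Without that rat Lyz2 went from 0.04 to 0.74 (adjusted p = 0.2), and the estimates of Fcer1g (0.09), Tyrobp (0.17), Cybb (0.39), Cyba (0.19) and Ctss (0.00) were no longer negative. For Tyrobp the interval was -1.22 to 0.48 and for Lyz2 -0.81 to 0.90, wide enough to hold differences of the size seen within a strain. The young rats were 6 months old in one strain and 4 months in the other. The ratio of 3′ to 5′ GAPDH signal also differed, from 1.31 to 7.33 over the F344 arrays and from 0.774 to 0.944 over the Brown Norway arrays. Its part in the strain comparison was not tested.

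The other genes of these pathways are given by list. Of 18 genes for Fc receptor signalling (kinases, adaptors, phosphatases and other Fc receptors), 10 were tested in F344 rats and 0 passed at 24 against 6 months with limma, 3 at an unadjusted p under 0.05, with a median log2 fold change of 0.28. Vav1, an exchange factor downstream of ITAM receptors, went from 36.98 to 48.6 (adjusted p = 0.0582), and Lcp2, the adaptor SLP-76, from 37.5 to 60.1 (adjusted p = 0.0812). The kinase Syk, which docks on phosphorylated ITAMs, went from 38.9 to 56.4 (adjusted p = 0.178). Of the 6-month rats 1 was at the floor for Syk, 2 for Lcp2 and 0 for Vav1. Of 7 tested in Brown Norway controls 0 passed at 24 against 4 months, 3 at an unadjusted p under 0.05.

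Of 10 listed partners of ITAM adaptors and phagocytic integrins, 2 were tested in F344 rats. Itgb2, the beta subunit of the leukocyte integrins, rose 2.09-fold by 18 months, to 208 (adjusted p = 0.0223), and 2.39-fold by 24 months, to 239.8 (adjusted p = 0.00211). Klrk1 did not pass (adjusted p = 0.988 at 24 months). In Brown Norway controls Itgb2 went from 126 to 284 without passing (adjusted p = 0.108).

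Of 8 other genes of the oxidase and its regulation, 5 were tested in F344 rats, and 1, Rac2, rose at 24 against 6 months. Rac2, the small GTPase of the oxidase in blood cells, went from 172 to 327 (log2 ratio 0.88, SE 0.22, adjusted p = 0.0222). Its widely expressed relative Rac1 went from 902 to 948 (adjusted p = 0.719), and Cybc1, a chaperone for gp91-phox, from 138 to 161 (adjusted p = 0.368). The cytosolic subunit Ncf1 lay below the filter in both strains. Among 5 tested genes that make or remove superoxide and peroxide outside the phagocyte oxidase 0 passed, 2 at an unadjusted p under 0.05: Nox4 (53.2 to 10.5, adjusted p = 0.175) and catalase, both with negative estimates. All 4 Nox4 values at 24 months were below the floor.

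Among 12 tested lysosomal genes 2 rose in F344 rats at both 18 and 24 against 6 months. Legumain, Lgmn, an endopeptidase that processes other lysosomal proteases, went from 430.1 to 719.8 and 692 (adjusted p = 0.0184 and 0.00681). Cd63, a lysosomal membrane tetraspanin, went from 216 to 666 and 476 (adjusted p = 0.0172 and 0.0287). Ctsz went from 158 to 252 at 24 months without passing (adjusted p = 0.113). Of 5 tested macrophage transcription factors Irf1, an interferon-induced factor, rose from 183 to 352 at 24 months (log2 ratio 0.97, adjusted p = 0.00219), and Irf8 went from 89.1 to 142 (adjusted p = 0.174). In Brown Norway controls of 24 against 4 months 0 of 12 lysosomal genes passed, 2 at an unadjusted p under 0.05, among them Lgmn (347 to 695, adjusted p = 0.133), and 0 of 5 transcription factors, 0 at such a p.

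Markers of several cell types moved with the 9 genes. Of 10 measured Kupffer cell markers (14 listed) 4 rose in F344 rats at 24 against 6 months, Cd68, Clec4f, Csf1r and Cd5l, and 10 of 10 were positive with a median log2 fold change of 0.70. Their summed signal was 3250.3 to 4409 over the 6-month rats and 5194 to 7765 over the 24-month rats. Of 8 pan-leukocyte genes 7 rose, with sums of 591 to 858 at 6 and 1258 to 2105 at 24 months, and of 8 MHC class II genes 5 rose (RT1-Da, RT1-Ba, RT1-Bb, RT1-DMa and RT1-DMb), with sums of 1326 to 2314 and 2666 to 7346. S100a8 and S100a9, of neutrophils and monocytes, rose among 3 tested, but the sums of that list overlapped (474 to 864 at 6 and 658 to 961 at 24 months). Gzmk, Klrd1 and Cd8a rose among 7 tested T and natural killer cell genes, whose summed signal was 248.98 to 299 at 6 and 391 to 979 at 24 months. Of 16 F344 arrays, S100a8 and Klrd1 were above the floor on 8, Cd8a on 5 and Gzmk on 11. Genes this dim could pass the filter through the older rats alone. Of 5 endothelial markers besides Fcgr2b 0 passed, 1 at an unadjusted p under 0.05, with sums of 1603 to 1763 and 1457 to 1868, and of 7 hepatocyte markers 0 passed, 0 at such a p, with sums of 38335 to 40722 and 39311 to 40603. The part of these cell types in the result was not tested.

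**Figure D4:**
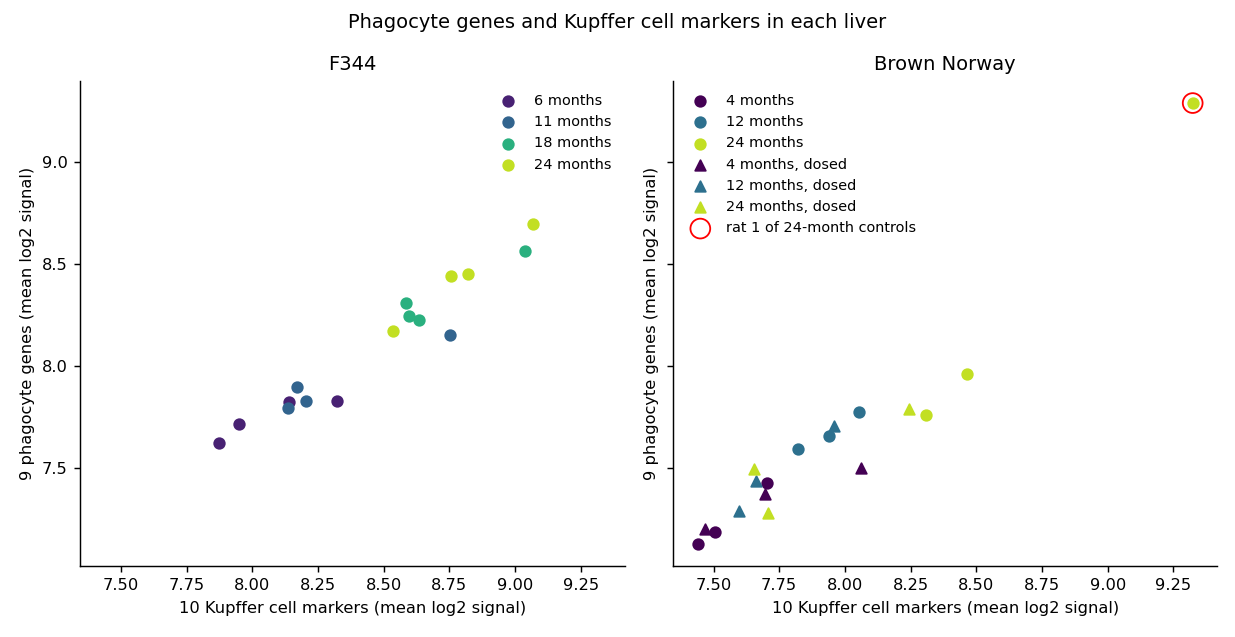
Mean log2 signal of the 9 phagocyte genes (vertical axis) against that of 10 Kupffer cell markers (horizontal axis) in each liver, F344 on the left and Brown Norway on the right. Colours give the age, triangles dosed rats, and the red ring rat 1 of the 24-month Brown Norway controls. The points lie along a band in both strains. Rat 1 is highest on both axes of its panel. Its 9-gene mean is also the highest of the strain relative to its marker mean (difference -0.04, next highest -0.16).

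The 9 genes were also set against the Kupffer cell markers of the same liver. The mean log2 signal of the 9 went from 7.74 ± 0.10 (SD, n = 4) at 6 to 8.44 ± 0.21 at 24 months in F344 rats. That of the 10 markers went from 8.07 ± 0.20 to 8.80 ± 0.22. The difference between them within a liver was -0.33 ± 0.12 at 6, -0.40 ± 0.14 at 11, -0.38 ± 0.09 at 18 and -0.36 ± 0.03 at 24 months, so it moved by less than the SD between rats of the 3 younger ages. In Brown Norway controls it was -0.31 ± 0.02 (SD, n = 3) at 4, -0.27 ± 0.03 at 12 and -0.36 ± 0.29 at 24 months. In that oldest group rat 1 had -0.04, rat 2 had -0.55 and rat 3 had -0.50. The younger controls ran from -0.32 to -0.23, so rat 1 was above all of them and rats 2 and 3 were below.

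Rat 1 of the 24-month controls also differed in these lists. Its Kupffer cell sum was 8081 against 2279 to 4701 on the other 17 Brown Norway arrays, its pan-leukocyte sum 2314 against 532 to 906, and its MHC class II sum 10892 against 947 to 1945. Its T and natural killer cell sum of 203 was above the 81.3 to 130.2 of the others, though all 8 measured genes of that list lay below the filter. Its lysosomal gene sum was 19802 against 13955 to 16628. Its hepatocyte sum, 41007, was within the 36695 to 41105 of the others, as was its sum of monocyte and neutrophil genes, 1048 within 901 to 2243. Its GAPDH ratio was 0.834, within the 0.774 to 0.944 of the strain. Its sum of genes that make or remove superoxide and peroxide, 13250.2, was below the 14571 to 15257 of the others. At 24 against 4 months in these controls 2 of 10 Kupffer cell markers rose, Cd163 and C1qb, and 10 of 10 were positive with a median of 1.19. Of 2 B and plasma cell genes Jchain rose, with sums of 132 to 163 at 4 and 321 to 445 at 24 months for that list. Of 7 pan-leukocyte genes 0 passed and 6 had an unadjusted p under 0.05, and 2 erythroid genes had a median of -1.15. The part of these cell types in the levels of the 9 genes was not tested.

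Within groups the 9 genes varied together to an unequal degree. Correlations of deviations from the group mean were positive for 30 of 36 pairs over 16 F344 arrays, with a median Pearson r of 0.26. The closest pair was Fcer1g with Cybb (r = 0.67), and the least was Fcgr3a with Fcgr2b (r = -0.50), the neighbouring activating and inhibitory receptors. In Brown Norway rats Fcgr3a with Fcgr2b was positive instead, at 0.42 with rat 1 and 0.47 without it. Over 18 Brown Norway arrays the median was 0.81, and over 17 without rat 1 it was 0.47 with 33 of 36 pairs positive. Without rat 1 the closest pair was Fcer1g with Cyba (r = 0.87), and Lyz2 (median r = 0.18) and Cybb (median r = 0.19) went least with the others. The median r of a member with all tested genes was near 0, and these arrays share normalization, so the values describe these arrays.

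The genes most like the mean of the 9 over the arrays of a strain, ages included, were named by Pearson r. In F344 rats over 16 arrays they were Pla2g2d (r = 0.97), Ms4a6bl1 (0.96), Camk2d (0.96), Ldhb (0.95) and Psmb10 (0.95). In Brown Norway rats over 18 arrays they were RT1-DMa (0.97), Lcp1 (0.97), Laptm5 (0.96), Gpnmb (0.96) and Arpc1b (0.95). Without rat 1 these 5 had r from 0.85 to 0.90. The 2 lists of 5 shared 0 genes.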

How the data were processed

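Whole-liver RNA of 34 rats, prepared with TriReagent and a column per the labels' protocols, was measured on Affymetrix Rat 230 2.0 arrays. The deposited values were linear probe set intensities. MAS5 and RMA are named in the submitters' processing notes, and which of them made these values is not given in the sources used here. Arrays carry no count, so their number limits the precision.

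Of 24946 probe sets, 17584 had 1 gene symbol in the platform annotation, 393 several and 6916 none, and 53 were controls. Signals were set to a floor of 32 and log2-transformed. Each gene was represented by its probe set of highest mean log2 signal in the strain, and was tested if above the floor on at least 4 F344 or 3 Brown Norway arrays. Each strain was fitted with limma 3.58.1 (R 4.3.3), a mean per group and empirical Bayes, with Benjamini-Hochberg adjustment over all genes tested and a threshold of 0.05. The strain difference used a t statistic with Satterthwaite degrees of freedom. Intervals cover 95%. The fits were tested on simulated data.

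The genes named were the 9 of the list, up to 6 of each pathway list that passed in a comparison or else the 2 of smallest p, and the 5 most correlated genes in each strain; Syk, Klrk1, Rac1, Cybc1, Ctsz and Irf8 were named after their values were seen. The 9 genes and the lists were chosen with earlier results of these data known, and the comparison of 18 with 11 months was added after values were seen. Replicate numbers follow accession order and pair no samples. Alternatives covered the floor, filter, probe set choice, normalization, fit and single arrays left out.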

Additional observations from a re-analysis of the deposited data

How the results depend on the processing

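Over 126 gene results and 2285 values under the alternatives (a lower and a higher floor, other filters and normalizations, array weights, other fits, single arrays left out), 2223 kept their direction and side of the threshold, 39 lost their call, 23 gained one and 0 called values changed sign, while 66 values that passed neither before nor after changed sign, in 31 results. At 18 against 6 months in F344 rats the count of 3 became 6 with array weights and 1 once arrays with a high GAPDH ratio were dropped, and ran from 1 to 4 when single rats were left out, 1 being without 18-month rat 3 or 6-month rat 1, 2 or 3. At 18 against 11 months the count of 0 became 2 with array weights and 1 with the GAPDH ratio as a covariate. At 24 against 6 months the count of 6 became 7 with array weights and ran from 4 to 6 with single rats left out. In Brown Norway controls of 24 against 4 months the count of 0 became 1 with array weights, 1 with a robust variance trend and 1 with control and dosed rats together, and ran from 0 to 6 with single rats left out. At 24 against 12 months and for toluene at 24 months it ran from 0 to 1. The cause of these changes in the counts was not tested. Under each of 6 settings, namely the lower floor, no filter, every probe set tested, repeated quantile normalization, median scaling and only the compared groups, Cybb lost its call at 24 against 6 months (adjusted p from 0.06 to 0.112) and Lyz2 its call at 18 against 6 months (adjusted p from 0.051 to 0.0668). With the higher floor Fcgr1a in F344 rats had a log2 fold change of 0.07 at 24 against 6 months (adjusted p = 0.616), since its signals lie near or below that floor. Fcgr3a and Cyba were above that floor on fewer than 4 F344 arrays and were not tested with it.

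No paired analysis was possible because the replicate numbers were given in accession order and the animal numbers of the labels are not shared between groups.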
